A study of Homo sapiens with 18 samples.

Results

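The genes described here encode the parts of the elastic fibre, and are ELN, FBN1, FBN2, FBLN5, EFEMP1, EFEMP2, MFAP2, MFAP4, MFAP5 and EMILIN1. These 10 of the 61544 genes in the count tables were taken by gene symbol. The set was selected on the ELN values of the knockdown experiment, in which ELN RNA was higher with both guides against the long noncoding RNA PURPL, and those values are given below as a description, without a test. The other 9 genes were taken for their place in the fibre, and the question was whether they changed as ELN did. All 10 genes were counted often enough to be tested in both tables, the lowest single value being 74 counts among knockdown libraries and 495 among overexpression libraries.

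Poly(A) RNA was sequenced from BJ, a fibroblast line of human skin, in 6 groups with 3 libraries each (18 libraries). The molecule field of the sample labels reads genomic DNA, but their protocol describes RNA sequencing, and the values were read as RNA. In the knockdown experiment, PURPL transcription was repressed by CRISPR interference (a repressor brought to the gene by a guide RNA) with sgRNA-PURPL#1 (guide 1) or sgRNA-PURPL#2 (guide 2), and the control was sgCtrl, the control guide. In the overexpression experiment PURPL#1-OE (line 1) and PURPL#2-OE (line 2) were set against their own control, Ctrl. The series asks what PURPL does in senescence, a lasting arrest of cell division. No genotype, agent, age or time beyond these names is given in the labels, which also do not say whether the cultures are clones, whether line 1 and line 2 carry different constructs, or whether the libraries of a group came from separate cultures. The p-values therefore measure the spread between these libraries, which may be technical. Each guide shares the sgCtrl libraries with the other guide, and each line shares the Ctrl libraries with the other line.

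An elastic fibre has a core of crosslinked elastin, which is secreted by fibroblasts and other cells as the soluble monomer tropoelastin, the product of ELN. The core forms on a scaffold of microfibrils, which are polymers of the fibrillins, and fibulins and microfibril-associated glycoproteins bring monomer, scaffold and crosslinking enzymes together. In skin these fibres give elastic recoil, and most elastin is deposited in early life.

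The knockdown libraries held 11444513 to 12896040 counts each, the overexpression libraries 18858976 to 27985649. PURPL measured 14.1 to 17.9 with guide 1 and 17.9 to 21.4 with guide 2, against 71.0 to 94.1 in sgCtrl, in CPM (counts relative to the TMM-scaled library total, the unit of all levels here). In line 1 it measured 166 to 178 CPM and in line 2 it measured 114 to 129 CPM, against 59.2 to 67.3 CPM in Ctrl. All 8 fibroblast markers looked up, COL1A1, COL1A2, COL3A1, PDGFRA, PDGFRB, THY1, LUM and VIM, were counted in every group. Smooth muscle cells also make elastin, and their markers MYH11, DES and ACTG2 summed to 0.388 to 0.522 with guide 1 and 0.330 to 0.419 with guide 2, against 0.0782 to 0.260 CPM in sgCtrl, so they were near 0 in every knockdown library, with ACTG2 at 0 in all guide 1 and all sgCtrl libraries. All pairs of libraries within a group differed by more than sampling noise (chi-square per gene of at least 2.47 for knockdown and 3.53 for overexpression), so none was counted as a duplicate. Replicate 1 of sgCtrl stood apart from its group, with chi-squares of 6.95 and 10.7 against 4.25 between the other sgCtrl libraries and at most 3.28 within the guide groups. Because RNA was read from whole cultures, fewer cells that express a gene and less RNA per cell cannot be told apart.

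Levels of different genes can be compared only per length, and were divided here by the length of annotated exons (GENCODE release 29). This is an approximation. The length in the tables is the whole gene span, and the counts were taken over that span. Intron reads are therefore included to an unknown extent, and genes with long introns may rank too high. For FBN1, FBLN5, MFAP2, MFAP4 and EMILIN1 the span is also not that of this release. On this scale, in CPM per kb of exon, ELN averaged 42.1 ± 1.86 with guide 1 and 64.4 ± 0.535 with guide 2, against 8.52 ± 0.407 in sgCtrl (SD, n = 3 each). Its rank among the 10 genes was 4 with guide 1 and 1 with guide 2, against 9 in sgCtrl, where FBN2 at rank 8 (8.93 ± 1.27) did not differ from it beyond its SD. In sgCtrl the leading genes were FBLN5 (43.7 ± 0.302), FBN1 (43.0 ± 5.81) and EFEMP1 (42.8 ± 0.737), whose order lies within their spread. MFAP5 was the lowest member in all 3 groups of the knockdown table, with 2.63 ± 0.283, 7.09 ± 0.0272 and 1.79 ± 0.340 CPM per kb in guide 1, guide 2 and sgCtrl. In the overexpression table EFEMP1 led in every group with 311 ± 7.97 in line 1, 294 ± 10.8 in line 2 and 214 ± 5.21 in Ctrl, followed by FBN1. There ELN had rank 9 in line 1 with 9.30 ± 0.244 and rank 10 in line 2 with 5.63 ± 0.236, against rank 8 in Ctrl with 8.96 ± 0.941 CPM per kb. In Ctrl, EFEMP2 (8.50 ± 0.453) and EMILIN1 (8.27 ± 0.672) did not differ from ELN beyond its SD. Nor did EFEMP2 at rank 8 in line 1 (9.38 ± 1.37).

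ELN encodes tropoelastin, the monomer of the elastic core (ENSG00000049540.19, on the plus strand of chromosome 7, hg38 positions 74027789 to 74069907). It measured 285, 279 and 261 in the guide 1 libraries and 421, 425 and 418 in the guide 2 libraries, against 55.3, 58.6 and 53.3 CPM in the sgCtrl libraries. Every guide 2 library lay above every guide 1 library, and every guide 1 library above every sgCtrl library. The fold change was 4.93 with guide 1 and 7.56 with guide 2, and guide 1 lay below guide 2 by a log2 difference of -0.62 ± 0.0573 (SE). No test is given for these 3 comparisons of ELN, since the first 2 chose the set and the last uses the same libraries. No other member approached these folds with guide 1, where the next was MFAP4 at 1.615-fold, and with guide 2 the next was MFAP5 at 3.94-fold.

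**Figure D1:**
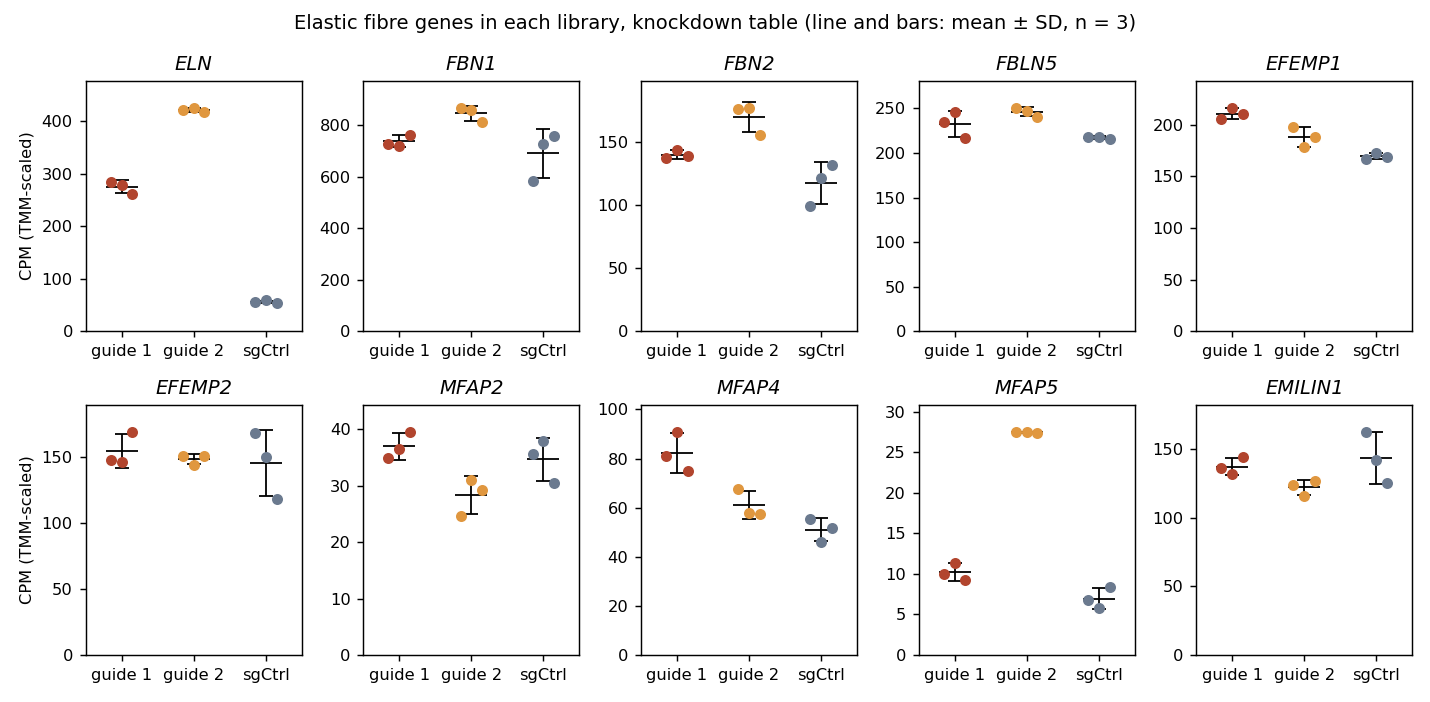
Level of the 10 elastic fibre genes in the knockdown table, in TMM-scaled CPM on linear axes that start at 0; each point is a library, the short line is the mean and the bars are the SD (n = 3) for guide 1, guide 2 and sgCtrl. ELN is several-fold above sgCtrl with both guides, MFAP5 stands highest with guide 2 at 27.4 to 27.6 CPM, and EFEMP2 overlaps in all 3 groups.

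The fibrillins form the microfibril scaffold, FBN1 being the main form after birth and FBN2 a form known mostly from development. FBN1 measured 728, 719.6 and 763 with guide 1 and 867, 858 and 811.5 with guide 2, against 584, 727 and 759 CPM in sgCtrl. The guide 2 libraries all lay above the sgCtrl libraries, whereas the guide 1 libraries overlapped them. FBN1 rose with guide 2 (log2 fold change 0.29 ± 0.0711, adjusted p = 0.00301 in edgeR's quasi-likelihood test with Benjamini-Hochberg adjustment over all genes, as for every adjusted p here) and did not pass with guide 1 (0.09 ± 0.0711, adjusted p = 0.367). Without sgCtrl replicate 1 the FBN1 change with guide 2 was 0.18 and still passed. FBN2 measured 138, 144 and 139 with guide 1 and 177, 177.5 and 156 with guide 2, against 99.4, 122 and 132 CPM in sgCtrl, with no overlap between either guide and the control. It rose by 0.25 ± 0.0777 (adjusted p = 0.0186) with guide 1 and by 0.53 ± 0.0772 (adjusted p = 8.29e-06) with guide 2. The FBN2 call of guide 1 was lost without sgCtrl replicate 1 (0.14, adjusted p = 0.103), the library with the lowest FBN1 and FBN2, and without guide 1 replicate 1, 2 or 3 (0.26, 0.23 and 0.26, adjusted p = 0.0508, 0.0896 and 0.0518).

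Promoter sequences were at hand for 5 of the 10 genes (EFEMP2, FBLN5, FBN1, FBN2 and MFAP2) in a RefSeq table of build GRCh38.p14. FBN2, FBLN5 and FBN1 are printed as the members of the 5 that rose in at least 2 comparisons with a control, as EFEMP2 and MFAP2 rose in 0. Shown are the 250 bases before the RefSeq transcript start, for FBLN5 the more upstream of its 2 starts, written 5′ to 3′ on the gene's strand. Capitals mark the GC box, GGGCGG or its complement CCGCCC, the site bound by Sp1.
FBN2, chr5:128538246-128538495, minus strand: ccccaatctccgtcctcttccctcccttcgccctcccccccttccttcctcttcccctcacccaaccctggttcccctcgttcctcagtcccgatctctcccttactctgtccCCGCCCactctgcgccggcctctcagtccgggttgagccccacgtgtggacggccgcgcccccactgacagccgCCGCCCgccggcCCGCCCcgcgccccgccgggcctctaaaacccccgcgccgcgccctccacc
FBLN5, chr14:91947695-91947944, minus strand: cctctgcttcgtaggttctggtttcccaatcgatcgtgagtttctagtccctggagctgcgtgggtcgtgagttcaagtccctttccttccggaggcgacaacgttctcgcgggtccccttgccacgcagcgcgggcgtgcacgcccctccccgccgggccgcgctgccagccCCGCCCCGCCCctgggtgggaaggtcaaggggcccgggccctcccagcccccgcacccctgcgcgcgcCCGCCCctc
FBN1, chr15:48644971-48645220, minus strand: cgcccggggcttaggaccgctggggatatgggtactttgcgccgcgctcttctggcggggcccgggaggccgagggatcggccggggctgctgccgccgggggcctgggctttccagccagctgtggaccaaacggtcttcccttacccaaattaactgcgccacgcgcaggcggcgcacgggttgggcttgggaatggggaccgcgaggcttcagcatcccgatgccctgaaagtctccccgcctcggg
The GC box occurred 3 times in the FBN2 window, 3 times in that of FBLN5 (2 of them overlapping) and 0 times in that of FBN1. It occurred 5 times in the EFEMP2 window and 0 times in that of MFAP2, and it was in 42.6% of all 35116 windows of this length in the table. A link between its number and the calls of these 5 genes was not tested. The spans of FBN2, FBN1 and FBLN5 in the count tables run upstream of the printed windows, to positions 128659185, 48645721 and 91947987. Each therefore includes a start further upstream. The EFEMP2 span also runs upstream of its window, and the MFAP2 span does not reach its window. The TATA box TATAAA, read on both strands, was in 0 of the 5 windows, against 10.7% of all windows. A match describes these letters and is not evidence that a factor binds there.

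Among the fibulins, FBLN5 binds tropoelastin and microfibrils and is needed for elastic fibre assembly in mice, EFEMP2 links tropoelastin to lysyl oxidase, and EFEMP1 is a relative abundant in fibroblasts. FBLN5 measured 234, 246 and 217 with guide 1 and 251, 247 and 241 with guide 2, against 218, 218 and 215 CPM in sgCtrl. Guide 2 lay above the control without overlap, by 1.13-fold. FBLN5 rose with guide 2 (0.18 ± 0.0584, adjusted p = 0.0223) and did not pass with guide 1 (0.10 ± 0.0585, adjusted p = 0.234). EFEMP1 measured 206, 216 and 210.5 with guide 1 and 197.5, 178 and 188 with guide 2, against 167, 173 and 169 CPM in sgCtrl. All libraries of both guides lay above those of the control, and the rise passed with guide 1 (0.31 ± 0.0587, adjusted p = 1.38e-04) but not with guide 2 (0.15 ± 0.0589, adjusted p = 0.0698). EFEMP2 measured 146 to 169 with guide 1 and 144 to 151 with guide 2, against 118 to 168 CPM in sgCtrl, and its log2 changes of 0.09 ± 0.0961 and 0.03 ± 0.0962 did not pass (adjusted p = 0.566 and 0.850).

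MFAP5 and MFAP2 encode the small glycoproteins MAGP-2 and MAGP-1, which decorate microfibrils, and MFAP4 encodes a secreted protein that binds tropoelastin and fibrillin. MFAP5 measured 10.02, 11.4 and 9.22 with guide 1 and 27.5, 27.6 and 27.4 with guide 2, against 6.75, 5.75 and 8.36 CPM in sgCtrl. The 3 groups did not overlap, and the order was that of ELN. MFAP5 rose by 0.56 ± 0.136 (adjusted p = 0.00267) with guide 1 and by 1.98 ± 0.120 (adjusted p = 8.27e-14) with guide 2. MFAP4 measured 81.1, 91.0 and 74.9 with guide 1 and 67.6, 58.0 and 57.5 with guide 2, against 55.5, 45.9 and 51.7 CPM in sgCtrl, so that guide 1 stood highest. It rose by 0.69 ± 0.0817 (adjusted p = 1.80e-07) with guide 1 and by 0.26 ± 0.0834 (adjusted p = 0.0231) with guide 2. MFAP2 measured 34.9 to 39.6 with guide 1 and 24.6 to 31.1 with guide 2, against 30.5 to 37.8 CPM in sgCtrl. It fell with guide 2 (-0.29 ± 0.0932, adjusted p = 0.0217), where 1 of 3 libraries lay inside the control range, and did not pass with guide 1 (0.09 ± 0.0905, adjusted p = 0.499).

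EMILIN1 encodes a glycoprotein found where elastin meets the microfibrils. It measured 132 to 144 with guide 1 and 116 to 127 with guide 2, against 125 to 163 CPM in sgCtrl. It fell with guide 2 (-0.23 ± 0.0734, adjusted p = 0.0236), although the groups overlapped, and did not pass with guide 1 (-0.06 ± 0.0730, adjusted p = 0.602).

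Counted over the 9 genes other than ELN, guide 1 gave 4 rises and 0 falls, where 24.5% of all 13923 genes tested passed (11.6% higher). Guide 2 gave 5 rises and 2 falls, where 24.4% of all genes passed (11.9% higher and 12.4% lower). The median log2 change of the 9 was 0.10 with guide 1 and 0.18 with guide 2, beside 0.00374 and -0.00141 for all genes. FBN2, MFAP4 and MFAP5 rose with both guides. The guide 2 count dropped to 3 without sgCtrl replicate 2 or without guide 2 replicate 1. FBLN5 (0.18 and 0.17, adjusted p = 0.0557 and 0.0826), MFAP2 (-0.22 and -0.20, adjusted p = 0.151 and 0.167), MFAP4 (0.19 and 0.18, adjusted p = 0.154 and 0.163) and EMILIN1 (-0.23 and -0.24, adjusted p = 0.0598 and 0.0544) were the calls lost in those 2 fits. FBLN5 was also lost without guide 2 replicate 2 (0.18, adjusted p = 0.0728), and EMILIN1 without sgCtrl replicate 1 (-0.13, adjusted p = 0.135) and without guide 2 replicate 2 (-0.19, adjusted p = 0.115).

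**Figure D2:**
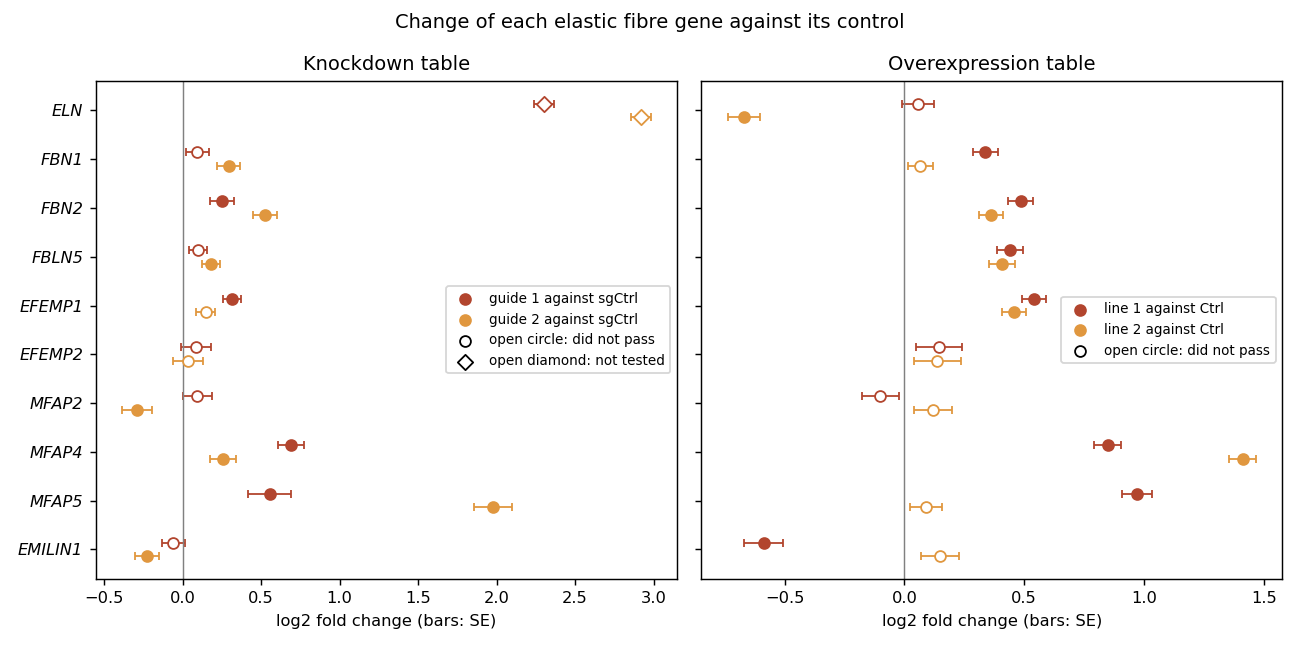
Log2 fold change of each elastic fibre gene against its control, with bars of 1 SE; guides are shown on the left and overexpression lines on the right, filled circles passed an adjusted p of 0.05, open circles did not, and open diamonds were not tested. ELN stands at 2.30 and 2.92 with the guides and at 0.06 and -0.67 in the lines, while FBN2 and MFAP4 passed on the positive side in all 4 comparisons. FBN1, FBLN5, EFEMP1, EFEMP2 and MFAP5 lie on that side in all 4 without passing in each.

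The guides themselves differed for 4 of the 9 genes, of which 2 were higher and 2 lower with guide 1 than with guide 2 (9.25% of all genes passed, 3.74% higher and 5.51% lower). MFAP5 was lower with guide 1 by -1.42 ± 0.113 (adjusted p = 1.61e-10) and FBN2 by -0.28 ± 0.0766 (adjusted p = 0.0194). MFAP4 was higher with guide 1 by 0.43 ± 0.0805 (adjusted p = 4.44e-04) and MFAP2 by 0.39 ± 0.0927 (adjusted p = 0.00566). MFAP4 and MFAP5, which both rose with each guide, thus ranked the guides in opposite order. The FBN2 difference was lost without guide 1 replicate 1 or 3 (-0.27 and -0.27, adjusted p = 0.0877 and 0.0863) and without guide 2 replicate 1 or 2 (-0.25 and -0.25, adjusted p = 0.0901 and 0.0886). The MFAP2 difference was lost without guide 1 replicate 3 (0.34, adjusted p = 0.0548) or guide 2 replicate 1 (0.29, adjusted p = 0.0810). Without sgCtrl replicate 1, which is in neither group but shares the estimate of the spread, FBN1 (-0.20, adjusted p = 0.00132), EFEMP1 (0.16, adjusted p = 0.0238) and EMILIN1 (0.16, adjusted p = 0.0482) passed as well, and without sgCtrl replicate 3, FBN1 (-0.20, adjusted p = 0.0269) and EFEMP1 (0.17, adjusted p = 0.0410).

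With PURPL overexpressed, ELN fell in line 2 and did not pass in line 1, and FBN2, FBLN5, EFEMP1 and MFAP4 rose in both lines. ELN measured 61.8, 59.0 and 61.8 in line 1 and 38.5, 36.5 and 35.4 in line 2, against 59.1, 52.3 and 64.5 CPM in Ctrl. It fell in line 2 (-0.67 ± 0.0687, adjusted p = 2.77e-09), where no library reached the control range, and did not pass in line 1 (0.06 ± 0.0659, adjusted p = 0.527). Line 1 lay above line 2 by 0.73 ± 0.0684 (adjusted p = 4.66e-09), and line 1 also held more PURPL RNA than line 2. The smooth muscle markers summed to 1.64 to 2.33 in line 1 and 1.01 to 1.72 in line 2, against 1.96 to 3.44 CPM in Ctrl, and their part in the ELN result was not tested.

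**Figure D3:**
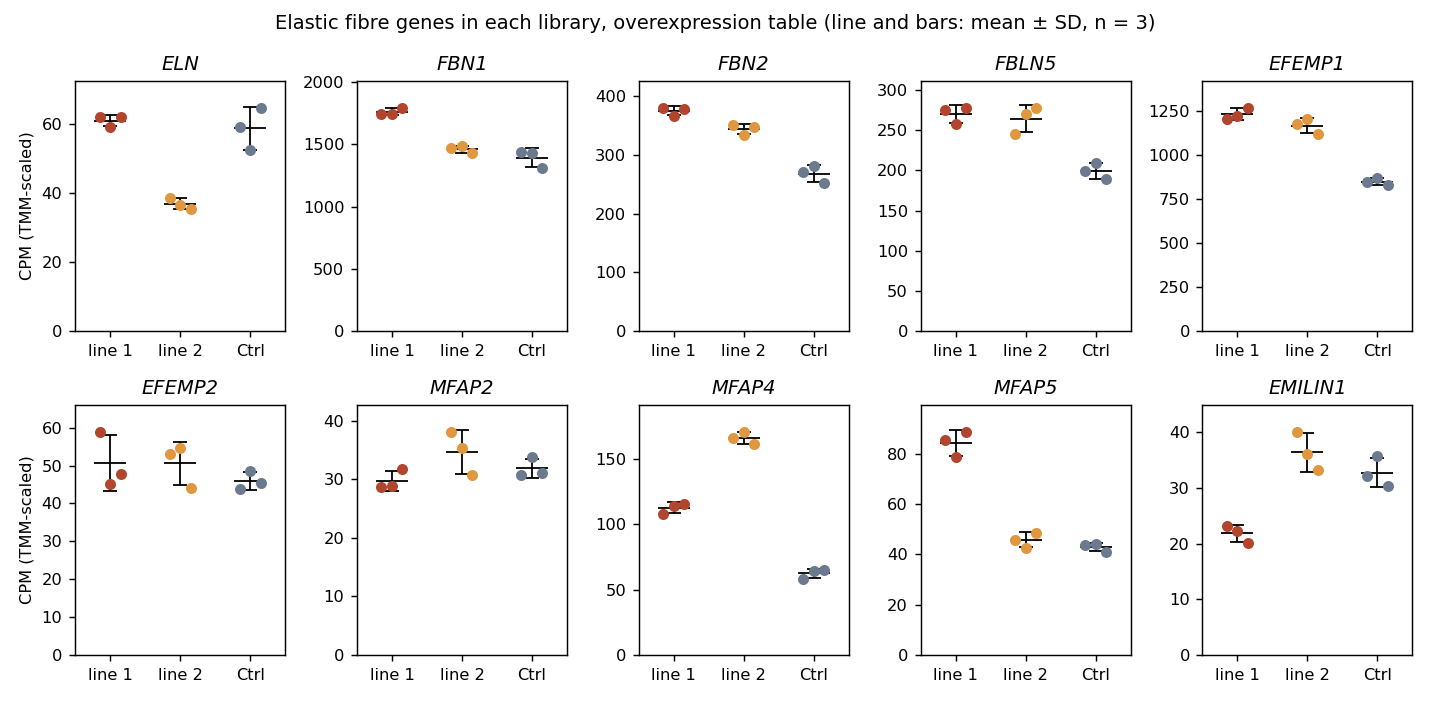
Level of the 10 elastic fibre genes in the overexpression table, in TMM-scaled CPM on linear axes that start at 0; each point is a library, the short line is the mean and the bars are the SD (n = 3) for line 1, line 2 and Ctrl. ELN is lowest in line 2 at 35.4 to 38.5 CPM, MFAP4 is highest in line 2 at 161 to 171 CPM, and MFAP5 is raised in line 1.

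Both fibrillin genes rose in line 1, and FBN2 also in line 2. FBN1 measured 1748, 1743 and 1794 in line 1 and 1470.0, 1485 and 1428 in line 2, against 1442, 1435 and 1307 CPM in Ctrl. It rose in line 1 (0.34 ± 0.0515, adjusted p = 3.51e-06) and did not pass in line 2 (0.07 ± 0.0515, adjusted p = 0.327), whose libraries overlapped the control. FBN2 measured 380.4, 367 and 379 in line 1 and 351, 335 and 348.5 in line 2, against 271.5, 280.5 and 253 CPM in Ctrl. All libraries of both lines exceeded the control, and FBN2 rose by 0.48 ± 0.0508 (adjusted p = 3.77e-09) in line 1 and by 0.36 ± 0.0509 (adjusted p = 9.74e-07) in line 2.

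The fibulin genes FBLN5 and EFEMP1 rose in both lines and EFEMP2 passed in neither. FBLN5 measured 275, 258 and 278 in line 1 and 245, 271 and 277 in line 2, against 199, 209 and 189 CPM in Ctrl, and rose by 0.44 ± 0.0550 (adjusted p = 1.18e-07) in line 1 and 0.41 ± 0.0551 (adjusted p = 4.85e-07) in line 2. EFEMP1 measured 1206, 1223 and 1267 in line 1 and 1173, 1203 and 1118 in line 2, against 846, 869 and 828 CPM in Ctrl, and rose by 0.54 ± 0.0503 (adjusted p = 3.40e-10) in line 1 and 0.46 ± 0.0503 (adjusted p = 1.07e-08) in line 2. For both genes every library of either line lay above every Ctrl library. EFEMP2 measured 45.05 to 59.0 in line 1 and 44.2 to 54.5 in line 2, against 43.8 to 48.6 CPM in Ctrl, with changes of 0.14 ± 0.0961 (adjusted p = 0.262) and 0.14 ± 0.0971 (adjusted p = 0.294).

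MFAP4 rose in both lines, and MFAP5 passed in line 1 but not in line 2. MFAP4 measured 108, 114 and 115.5 in line 1 and 166, 171 and 161 in line 2, against 58.4, 63.9 and 65.2 CPM in Ctrl, so that the 3 groups were apart. Its log2 changes were 0.85 ± 0.0556 (adjusted p = 1.27e-13) in line 1 and 1.41 ± 0.0556 (adjusted p = 6.49e-19) in line 2. MFAP5 measured 85.4, 78.7 and 88.8 in line 1 and 45.8, 42.7 and 48.7 in line 2, against 43.5, 44.3 and 41.1 CPM in Ctrl. Line 1 stood clear of the other groups (0.97 ± 0.0629, adjusted p = 9.71e-14), and line 2 overlapped the control (0.09 ± 0.0652, adjusted p = 0.294). MFAP2 measured 28.7 to 31.7 in line 1 and 30.7 to 38.2 in line 2, against 30.8 to 33.8 CPM in Ctrl, and did not pass in line 1 (-0.10 ± 0.0781, adjusted p = 0.327) or line 2 (0.12 ± 0.0782, adjusted p = 0.242).

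EMILIN1 fell in line 1 and did not pass in line 2. It measured 23.1, 22.2 and 20.1 in line 1 and 40.1, 36.02 and 33.1 in line 2, against 32.2, 35.6 and 30.4 CPM in Ctrl. No line 1 library reached the control range (-0.59 ± 0.0823, adjusted p = 8.62e-07), and line 2 overlapped it (0.15 ± 0.0802, adjusted p = 0.149). Without PURPL#2-OE replicate 3, EMILIN1 (0.21, adjusted p = 0.0493) and MFAP2 (0.20, adjusted p = 0.0454) passed as higher in line 2.

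Of all 10 genes, 6 rose and 1 fell in line 1, where 39.6% of all 15267 genes tested passed (19.5% higher, 20.1% lower), and 4 rose and 1 fell in line 2, where 38.5% passed (18.9% higher, 19.6% lower). The line 1 share of members lay above the background and the line 2 share near it. The median log2 change of the 10 was 0.39 in line 1 and 0.14 in line 2, beside 0.00763 and 0.00689 for all genes. The summed level of the 8 fibroblast markers was also higher with overexpression, at 25560 to 26770 in line 1 and 26980 to 28130 in line 2, against 21160 to 21900 CPM in Ctrl. Such a sum can rest on the most abundant markers, and changes of single markers are not given. Mitochondrial transcripts took 4.97% to 6.24% of counts in line 1 and 5.37% to 5.90% in line 2, against 4.26% to 4.80% in Ctrl. The part of either in the changes of the elastic fibre genes was not tested.

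The lines differed from each other for 5 of the 10 genes (12.4% of all genes passed, 6.19% higher and 6.18% lower). MFAP5 (0.88 ± 0.0630, adjusted p = 1.44e-11), ELN and FBN1 (0.27 ± 0.0515, adjusted p = 4.14e-04) were higher in line 1 than in line 2. EMILIN1 (-0.74 ± 0.0823, adjusted p = 1.25e-07) and MFAP4 (-0.56 ± 0.0536, adjusted p = 5.80e-09) were lower in line 1. Without PURPL#2-OE replicate 3, MFAP2 passed as lower in line 1 (-0.30, adjusted p = 0.00935).

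The mean effect of the guides was set against the mean effect of the lines in a fit of all 18 libraries, in which 4 of the 9 genes other than ELN differed (33.6% of all genes passed, 18.0% higher and 15.6% lower). The mean knockdown effect exceeded the mean overexpression effect for MFAP5 by 0.74 ± 0.123 (adjusted p = 4.26e-06). These means join unlike arms, as MFAP5 changed by 0.56 with guide 1, 1.98 with guide 2, 0.97 in line 1 and 0.09 in line 2. The line 1 estimate was above that of guide 1, so the order does not hold for every pair of arms. The mean knockdown effect was below the mean overexpression effect for MFAP4 (-0.65 ± 0.0881, adjusted p = 8.41e-08), FBLN5 (-0.28 ± 0.0720, adjusted p = 0.00204) and EFEMP1 (-0.26 ± 0.0683, adjusted p = 0.00207). All guide and line estimates of MFAP4, FBLN5 and EFEMP1 were positive, so the estimates differed in size and not in sign. Among them FBLN5 with guide 1 and EFEMP1 with guide 2 did not pass. FBN1 and FBN2 did not pass (-0.00302 ± 0.0802 and -0.03 ± 0.0828, adjusted p = 0.984 and 0.831). For FBN1 the means cover 0.09 with guide 1, 0.29 with guide 2, 0.34 in line 1 and 0.07 in line 2. Across the 4 comparisons with a control, FBN2 and MFAP4 rose in all 4, FBLN5, EFEMP1 and MFAP5 in 3, FBN1 in 2, and EFEMP2 passed in 0. Of these calls, FBN2 with guide 1 and MFAP4 and FBLN5 with guide 2 were lost on leaving out certain single libraries.

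Ratios of raw counts inside a library do not depend on the scaling between libraries. There were 39.1, 38.8 and 34.2 ELN counts per 100 FBN1 counts with guide 1 and 48.6, 49.5 and 51.5 with guide 2, against 9.48, 8.06 and 7.03 in sgCtrl. In the overexpression table the same ratio was 3.39 to 3.53 in line 1 and 2.46 to 2.62 in line 2, against 3.64 to 4.94 in Ctrl. Every library of either line lay below every Ctrl library in this ratio, although in line 1 ELN itself did not pass and FBN1 rose. MFAP5 counts per 100 MFAP2 counts were 28.7, 31.2 and 23.3 with guide 1 and 112, 88.7 and 93.6 with guide 2, against 19.0, 15.2 and 27.4 in sgCtrl. They were 273 to 298 in line 1 and 120 to 158 in line 2, against 131 to 142 in Ctrl. FBN2 made up 15.4% to 16.7% of the fibrillin counts with guide 1 and 16.1% to 17.1% with guide 2, against 14.4% to 14.8% in sgCtrl, and 17.4% to 17.9% in line 1 and 18.4% to 19.6% in line 2, against 15.8% to 16.4% in Ctrl. No test was run on these ratios.

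**Figure D4:**
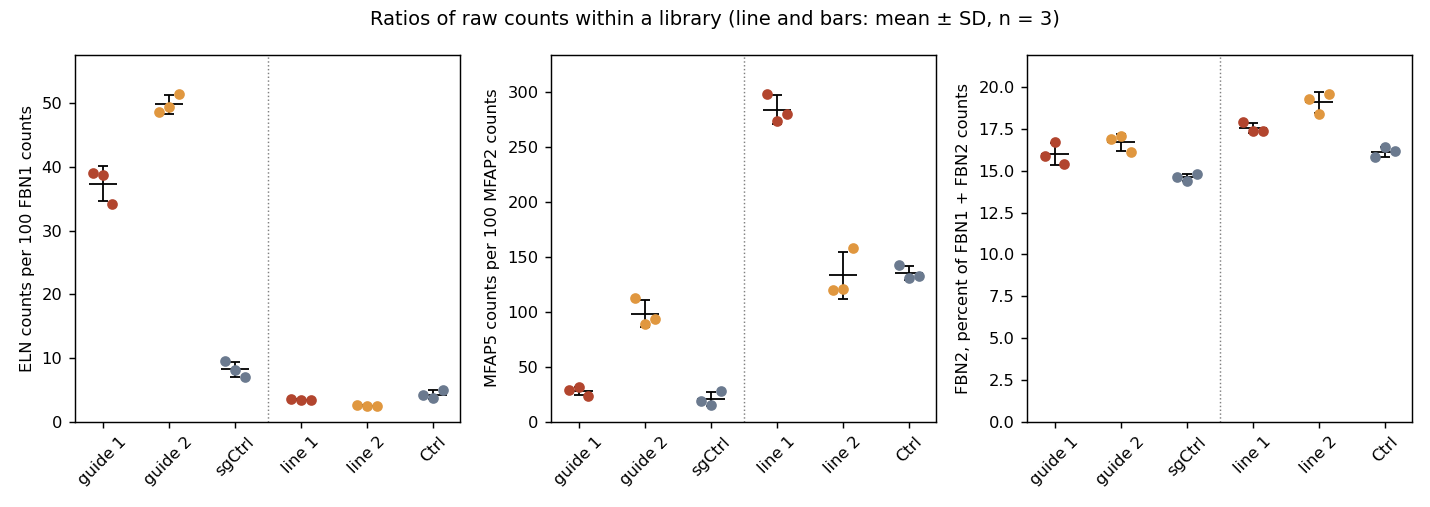
Ratios of raw counts within each library on linear axes that start at 0, with knockdown groups left and overexpression groups right of the dotted line; points are libraries and bars are the mean ± SD (n = 3). ELN per 100 FBN1 stands at 34.2 to 51.5 with the guides and at 9.48 or less elsewhere, MFAP5 per 100 MFAP2 is highest in line 1, and the FBN2 share varies between 14.4% and 19.6%.

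The 2 tables were made from separate experiments and scaled separately, and the levels of their controls differed for several members. EFEMP1 averaged 848 CPM in Ctrl and 169.6 CPM in sgCtrl, and EMILIN1 averaged 32.7 CPM in Ctrl and 143 CPM in sgCtrl, while ELN averaged 58.6 and 55.7 CPM. These differences cannot be told apart from the experiment and were not tested.

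Likeness to ELN was measured as the mean of 2 Pearson correlations of log2 CPM, over the 9 libraries of each table, among 13637 genes. The highest means were those of STAC, an adaptor of calcium channels (0.972), FOXE1, a forkhead transcription factor (0.934), EDIL3, a secreted integrin ligand (0.931), CNTN3, a contactin (0.918), and SLC7A5, an amino acid transporter (0.918). STAC averaged 42.6 ± 2.18 with guide 1 and 49.1 ± 0.926 with guide 2, against 27.4 ± 1.63 CPM in sgCtrl, and 35.7 ± 1.57 in line 1 and 24.9 ± 0.487 in line 2, against 33.3 ± 0.980 CPM in Ctrl (SD, n = 3 each). EDIL3 and CNTN3 were low in the knockdown libraries, so their correlations there rest on few counts. EDIL3 averaged 1.80 ± 0.377 with guide 1 and 2.42 ± 0.103 with guide 2, against 1.04 ± 0.327 CPM in sgCtrl. CNTN3 averaged 3.37 ± 0.387 and 5.79 ± 0.731, against 1.92 ± 0.519 CPM. Among the members, MFAP5 was the most like ELN (0.827 over the knockdown libraries, 0.463 over the overexpression libraries, place 467) and EMILIN1 the least (-0.563 and -0.683). FBN1 was also positive in both tables (0.680 over the knockdown and 0.334 over the overexpression libraries, place 1168), and MFAP2 was negative in both (-0.369 and -0.625). FBN2, FBLN5, EFEMP1 and MFAP4 had positive values in the knockdown table (0.839, 0.832, 0.684 and 0.599) and negative ones in the overexpression table (-0.222, -0.391, -0.302 and -0.731). EFEMP2 did so too, with 0.211 and -0.176. The knockdown values use the ELN levels that selected the set, and any gene above sgCtrl with both guides scores positive there, as MFAP4 does although it was higher with guide 1 than with guide 2. The libraries share groups and controls, so these values describe the pattern of 9 libraries each and carry no test.

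A further 54 genes of elastic fibre assembly and turnover were looked up in 6 lists, of which the knockdown table allowed a test of 41 and the overexpression table of 42. Guide 1 gave 7 rises and 17 falls, or 58.5% of those tested beside 24.5% of all genes, and guide 2 gave 8 rises and 15 falls, or 56.1% beside 24.4%. Line 1 gave 14 rises and 17 falls, or 73.8% beside 39.6%, and line 2 gave 14 rises and 13 falls, or 64.3% beside 38.5%. These shares describe lists chosen with earlier results known, and the lists below hold 4 to 11 tested genes, so 1 gene moves a share widely. For all genes, 11.6% were higher and 12.9% lower with guide 1, 11.9% and 12.4% with guide 2, 19.5% and 20.1% in line 1, and 18.9% and 19.6% in line 2. Their medians were -0.17 with guide 1, -0.16 with guide 2, -0.09 in line 1 and -0.04 in line 2 on the log2 scale, beside medians of all genes between -0.00141 and 0.00763.

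Among 11 tested genes of crosslinking enzymes and chaperones of the fibre, guide 1 gave 1 rise and 7 falls (72.7% called beside 24.5% of all genes) and guide 2 gave 5 falls and 0 rises (45.5% beside 24.4%). LOXL4, a lysyl oxidase, averaged 75.3 ± 4.56 with guide 1 and 90.5 ± 0.421 with guide 2, against 309 ± 13.4 CPM in sgCtrl. The lysyl oxidase gene LOXL2 (-0.72 ± 0.0560 and -0.32 ± 0.0557, adjusted p = 2.47e-11 and 5.01e-05) and TGM2, a transglutaminase (-0.95 ± 0.0616 and -0.63 ± 0.0608, adjusted p = 3.26e-13 and 2.55e-09), fell with both. Line 1 gave 1 rise and 5 falls (54.5% called beside 39.6%) and line 2 gave 2 rises and 4 falls (54.5% beside 38.5%). The rises in line 2 were TGM2 (0.16 ± 0.0620, adjusted p = 0.0448) and the lysyl oxidase gene LOXL1 (0.25 ± 0.0682, adjusted p = 0.00428), which had fallen with both guides (-0.28 ± 0.0633 and -0.40 ± 0.0637). The rise in line 1 was the lysyl oxidase gene LOX (0.20 ± 0.0581, adjusted p = 0.00633). LOX fell with guide 1 (-0.60 ± 0.0569) and in line 2 (-0.25 ± 0.0583) and did not pass with guide 2 (-0.13 ± 0.0564). LOXL1 and LOX are named after their values were seen. Both lines lowered LOXL4 (-0.96 ± 0.0518 and -0.61 ± 0.0514, adjusted p = 1.11e-15 and 5.41e-11) and NEU1, a sialidase of the elastin receptor complex (-0.53 ± 0.0849 and -0.45 ± 0.0857, adjusted p = 7.40e-06 and 8.27e-05).

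Genes of elastin-degrading enzymes fell or did not pass. Of 8 tested in each table, 4 fell and 0 rose with each guide, and 7 fell in line 1 and 5 in line 2 with 0 rising. Beside these stand 12.9% and 12.4% of all genes lower with guide 1 and guide 2, and 20.1% and 19.6% lower in line 1 and line 2. The 8 were not the same genes, as MMP12 was tested only with the guides and MMP7 only in the lines. The counts include MMP12 with guide 1 (-0.92 ± 0.296) and MMP7 in line 1 (-2.71 ± 0.562), both with a wide SE. CTSK, cathepsin K, averaged 867 ± 33.6 with guide 1 and 650.3 ± 18.4 with guide 2, against 1055 ± 83.4 CPM in sgCtrl (SD, n = 3 each). CTSS, cathepsin S, averaged 6.21 ± 0.857 in line 1 and 9.21 ± 0.286 in line 2, against 37.9 ± 1.78 CPM in Ctrl. MME, the membrane peptidase neprilysin, fell with guide 1 (-0.36 ± 0.0591), guide 2 (-0.76 ± 0.0595), line 1 (-0.73 ± 0.0514) and line 2 (-0.73 ± 0.0514).

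Genes of proteoglycans that bind microfibrils rose or did not pass. Of 4 genes, 3 rose with guide 1, 4 with guide 2, 3 in line 1 and 4 in line 2, and 0 fell, beside 11.6%, 11.9%, 19.5% and 18.9% of all genes higher in these comparisons. BGN, biglycan, averaged 149.6 ± 9.84 with guide 1 and 99.5 ± 5.69 with guide 2, against 74.4 ± 2.05 CPM in sgCtrl, and 363 ± 22.2 in line 1 and 458 ± 26.2 in line 2, against 237 ± 21.6 CPM in Ctrl. VCAN, versican, averaged 21.0 ± 1.74 with guide 1 and 32.4 ± 2.53 with guide 2, against 6.64 ± 2.06 CPM in sgCtrl.

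Relatives of the microfibril genes were mixed. Of 8 genes, guide 1 gave 2 rises and 1 fall (37.5% called beside 24.5% of all genes) and guide 2 gave 3 rises and 2 falls (62.5% beside 24.4%). Of 9 genes, line 1 gave 4 rises and 2 falls (66.7% beside 39.6%) and line 2 gave 4 rises and 1 fall (55.6% beside 38.5%). The fibulin gene FBLN1 rose in all 4, by 0.24 ± 0.0564 with guide 1, 0.165 ± 0.0564 with guide 2, 0.83 ± 0.0542 in line 1 and 1.18 ± 0.0545 in line 2. FBLN2 rose with both guides (0.53 ± 0.0620 and 0.36 ± 0.0620), fell in line 1 (-0.19 ± 0.0528, adjusted p = 0.00411) and rose in line 2 (0.26 ± 0.0525, adjusted p = 2.05e-04). LTBP2, a latent TGF-beta binding protein of microfibrils, rose in both lines (0.67 ± 0.0561 and 0.77 ± 0.0563). Of 5 genes of the ADAMTS and ADAMTSL families, secreted proteases and their relatives that act at microfibrils, 4 fell with guide 1 and 2 with guide 2 with 0 rising, 2 rose and 2 fell in line 1, and 1 rose and 2 fell in line 2. The called shares were 80.0%, 40.0%, 80.0% and 60.0%, beside 24.5%, 24.4%, 39.6% and 38.5% of all genes.

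Of 5 tested integrin genes, guide 1 gave 1 rise and 1 fall (40.0% called beside 24.5% of all genes) and guide 2 gave 1 rise and 2 falls (60.0% beside 24.4%). Line 1 gave 4 rises and 1 fall (100% beside 39.6%) and line 2 gave 3 rises and 1 fall (80.0% beside 38.5%). ITGA8 rose with both guides (1.89 ± 0.126 and 0.63 ± 0.142) and in both lines (1.45 ± 0.0673 and 1.38 ± 0.0679), and ITGA5, the alpha chain of a fibronectin receptor, fell with both guides (-0.29 ± 0.0603 and -0.34 ± 0.0604) and in both lines (-0.71 ± 0.0568 and -0.45 ± 0.0566). ITGAV, the alpha chain of vitronectin receptors, fell with guide 2 (-0.22 ± 0.0705, adjusted p = 0.0250), did not pass with guide 1 (0.03 ± 0.0701, adjusted p = 0.841), and rose in both lines (0.72 ± 0.0572 and 0.78 ± 0.0573).

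**Figure D5:**
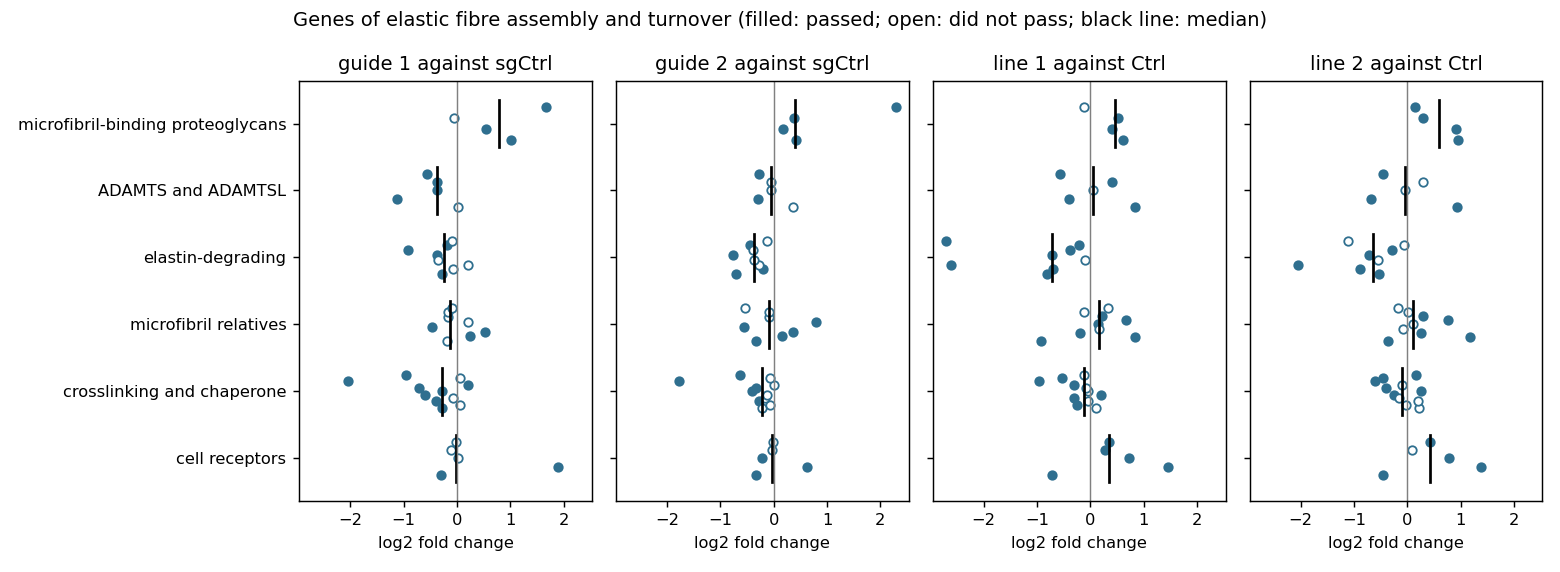
Log2 fold change of the tested genes in 6 lists of elastic fibre assembly and turnover, for both guides and both lines; each point is a gene, filled where it passed an adjusted p of 0.05 and open where it did not, and the black line is the list's median. Elastin-degrading genes that passed lie left of 0 in all 4 panels, and microfibril-binding proteoglycans that passed lie right of 0.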

How the data were processed

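RNA of 18 libraries was measured as read counts per gene. The authors deposited 2 tables of raw counts without normalization, a knockdown and an overexpression table of 61544 genes each. The notes on processing that the submitters left name, without their roles, HISAT2 2.1.0 and featureCounts 2.0.1 (with Subread), cutadapt 3.3 and FastQC 0.11.9, SAMtools 1.11, DESeq2 1.34.0, and the builds GRCh38.p13 and hg38. Annotation release and strand setting: not given in the sources used here. Per the labels' protocols, cDNA was amplified by PCR, with no mention of molecular identifiers, so copies may count more than 1 time and precision beyond the spread between libraries is unknown. In the tables, 0 of 9429 genes nested in a same-strand gene had counts, against 45% of the 11533 nested only in an opposite-strand gene, so counts followed the strand and reads shared by same-strand genes were not counted. The length listed for each gene is also its whole span, so reads over introns were counted with those over exons. FBN1 and FBN2 each enclose 1 small same-strand gene (749 and 114 bp).

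Columns were mapped to groups by name, 5 overexpression columns without replicate number as unnumbered libraries. With R 4.3.3, each table was fitted on its own by edgeR 4.0.16 (filterByExpr with min.count 10 and min.total.count 15, TMM scaling, quasi-likelihood test with robust dispersion, 6 residual degrees of freedom), adjusted over all genes by Benjamini and Hochberg's method, threshold 0.05, and checked on simulated counts. The fits also gave the SE. Alternatives were DESeq2 size factors, DESeq2 1.42.0, no filter, the 6 compared libraries alone, a replicate block, and leaving out each library. The replicate numbers were not shown to pair the samples.

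The members, lists and tests were chosen with earlier results of these data known. All members are named; of each further list, up to 3 genes per table were eligible, those changed alike in both arms with the largest mean change, and counts over a list include every tested gene.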

Additional observations from a re-analysis of the deposited data

Results flagged for a closer look

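Effects of the 2 guides, or of the 2 lines, on the same gene differed by a test of the difference itself for 9 values. Guide 1 against guide 2 gave log2 differences of -0.28 for FBN2, 0.39 for MFAP2, 0.43 for MFAP4 and -1.42 for MFAP5. Line 1 against line 2 gave 0.73 for ELN, 0.27 for FBN1, -0.56 for MFAP4, 0.88 for MFAP5 and -0.74 for EMILIN1. MFAP4 and MFAP5 are in both sets, and in each set the arm with the higher MFAP5 had the lower MFAP4.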

How the results depend on the processing

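Library scaling by DESeq2 size factors, DESeq2's own test, no filter and the replicate block kept every count of members called within 1.5 times, and ELN kept its direction with both guides in every fit. For guide 1 against guide 2, the 6 compared libraries alone called 7 members in place of 4. Leaving out 1 library in turn gave 3 to 4 members called for guide 1 (4 with all libraries), 3 to 7 for guide 2 (7), 2 to 7 for guide 1 against guide 2 (4), 7 to 7 for line 1 (7), 5 to 7 for line 2 (5), 5 to 6 for line 1 against line 2 (5) and 4 to 4 for knockdown against overexpression (4), the last chosen after seeing the data. Outside leaving out a library, MFAP2 was lost for guide 2 in DESeq2 (adjusted p = 0.0573) and EMILIN1 in the 6 libraries (adjusted p = 0.0538); for guide 1 against guide 2, FBN1 passed without the filter (adjusted p = 0.0362), and FBN1, EFEMP1 and EMILIN1 passed in the 6 libraries (adjusted p = 6.74e-04, 0.0125 and 0.0217). The cause was not tested.

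Sign changes occurred only for values that did not pass, and only on leaving out a library. The log2 ranges were -0.0183 to 0.170 for FBN1, -0.148 to 0.0331 for EMILIN1 and -0.0393 to 0.195 for EFEMP2 with guide 1, -0.0944 to 0.145 for EFEMP2 with guide 2, -0.0146 to 0.0895 for EFEMP2 between the guides, -0.0197 to 0.129 for ELN in line 1, and -0.122 to 0.0815 for EFEMP2 and -0.0195 to 0.0679 for FBLN5 between the lines. For knockdown against overexpression they were -0.113 to 0.0626 for FBN1, -0.140 to 0.0525 for FBN2, -0.212 to 0.0343 for EFEMP2 and -0.0148 to 0.178 for EMILIN1.

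Same-numbered knockdown libraries did not deviate together (correlations -0.0888 to 0.0386 over 9 pairs), and not every library correlated best with its own number. With the replicate block, 4, 7 and 4 members were called for guide 1, guide 2 and guide 1 against guide 2, as without it, and 3250, 3217 and 1204 of all genes. No paired analysis of the overexpression table was possible, because 5 of its columns carry no replicate number. PCR copies count separately, and leaving out a library reduces a group to 2.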
